A study of Mus musculus with 12 samples.

Results

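The loci of Tbx15, Tbx18 and Shox2, 3 transcription factor genes of the proximal limb bud, were read from the β-catenin and H3K27ac ChIP-seq peak lists of mouse forelimb buds. A summit, the position of highest coverage in a peak, belonged to a locus when it lay within 200 kb of the gene body. Of the 268431 summits in the 12 deposited lists, 283 met this rule, and of 21938 protein-coding genes 3 are described. All forelimb buds came from WT Swiss Albino embryos whose mothers were injected at E10.5 with DMSO or C59, and were dissected 6 h later. DMSO, the solvent of C59, serves as the wild-type control. C59 inhibits porcupine and so blocks the secretion of WNT ligands. The paper lists methylcellulose and Tween-20 in the C59 solution and not in the control solution. The buds of several embryos were pooled for each replicate, and each antibody and treatment had 2 replicates. The 12 lists are 8 replicate lists and 4 consensus lists, which hold summits called on both replicates together and present in both. A whole bud contains mesenchyme and ectoderm, so that fewer cells with β-catenin on chromatin and less β-catenin per cell cannot be told apart. Of 7 forelimb mesenchyme genes, 7 had an H3K27ac region at a transcriptional start site (TSS) in both treatments, while 0 of 4 ectoderm genes and 0 of 5 genes of other tissues had one.

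Tbx15 and Tbx18 encode T-box transcription factors that act in the formation of the shoulder girdle, and Shox2 encodes a homeodomain protein required for the humerus and femur. In the canonical WNT pathway, β-catenin enters the nucleus and binds DNA through TCF/LEF factors. H3K27ac is a histone mark of active promoters and enhancers. The landscapes of such developmental regulators often hold many distant enhancers.

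On GRCm38 (mm10), Tbx15 (ENSMUSG00000027868) lies at chr3:99240381-99354259 on the plus strand, and its window also holds the gene Wars2, which encodes a mitochondrial tryptophanyl-tRNA synthetase. Tbx18 (ENSMUSG00000032419) lies at chr9:87702800-87731260 on the minus strand, and its window holds 0 other protein-coding genes, the nearest being Cep162 with a TSS 476 kb away. Shox2 (ENSMUSG00000027833) lies at chr3:66971727-66981771 on the minus strand. The gene Rsrc1, which encodes an arginine and serine rich splicing-related protein, begins inside Shox2, 0.381 kb from the most 5′ Shox2 TSS. Rsrc1 runs across this TSS in the opposite direction, so that most upstream summits of Shox2 lie in Rsrc1 introns. The lists give positions and not target genes, and a summit in these windows may act on another gene.

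The sequences below come from β-catenin sites in wild-type controls whose peak heights are described next. The highest site of each locus is shown, and lower sites only where they held a TCF/LEF core. At Tbx15, the higher sites chr3:99447473 and chr3:99312115 hold no core and were left out, while the lower chr3:99311721 is shown. Of the 34 consensus summits of the 3 loci, 8 held a core. The sequences were thus partly chosen by their cores and do not show how often a core occurs. They are on the plus strand of GRCm38, and capitals mark a TCF/LEF core, ATCAAAG or TTCAAAG on either strand, so that CTTTGAA is a core on the minus strand.
Tbx15 intron, chr3:99278099-99278219: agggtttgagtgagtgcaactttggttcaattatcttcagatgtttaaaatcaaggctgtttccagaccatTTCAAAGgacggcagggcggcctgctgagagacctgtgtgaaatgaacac
Tbx15 intron, chr3:99311668-99311728: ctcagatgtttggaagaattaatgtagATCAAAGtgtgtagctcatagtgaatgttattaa
Tbx18 intron, chr9:87710343-87710403: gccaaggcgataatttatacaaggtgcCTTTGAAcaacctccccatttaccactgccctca
Tbx18 upstream, chr9:87824810-87824930: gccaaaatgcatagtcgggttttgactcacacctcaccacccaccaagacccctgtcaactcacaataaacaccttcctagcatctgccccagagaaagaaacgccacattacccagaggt
Shox2 upstream, chr3:67070823-67070960: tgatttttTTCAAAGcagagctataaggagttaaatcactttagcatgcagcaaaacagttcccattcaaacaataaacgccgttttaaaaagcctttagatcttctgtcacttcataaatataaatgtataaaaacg

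In wild-type controls, β-catenin occupied many sites at each gene, and after C59 nearly all of them were missing from the lists. At Tbx15, the replicate lists held 9 and 11 β-catenin summits in DMSO and 0 and 0 after C59. At Tbx18, they held 13 and 12 summits in DMSO and 0 and 1 after C59. At Shox2, they held 14 and 19 summits in DMSO and 0 and 0 after C59. At each gene the DMSO and C59 libraries did not overlap, and the difference was many times the spread between replicates. Over the 3 loci the number was 39 ± 4.24 (SD, n = 2) in DMSO and 0.50 ± 0.71 (SD, n = 2) after C59. The two-sided exact permutation test gave p = 0.33 for each gene, the smallest value that 2 against 2 libraries allow.

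**Figure D1:**
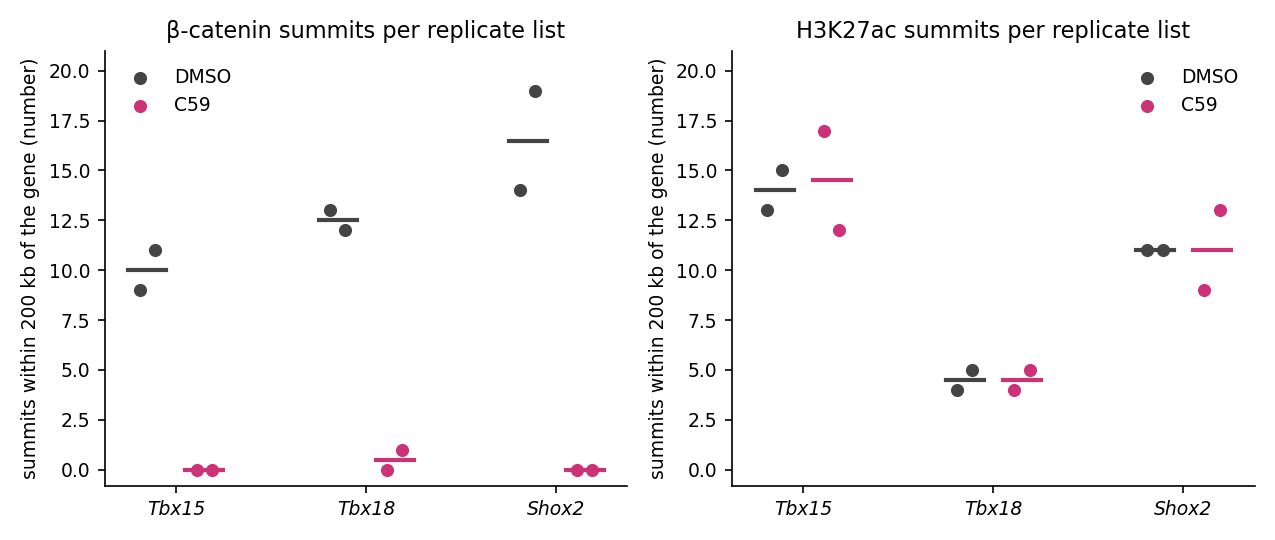
Number of β-catenin summits (left) and H3K27ac summits (right) within 200 kb of each gene in each replicate list; points are libraries and bars are the means of 2 replicates. The β-catenin lists held 9 to 19 summits per gene in DMSO and 0 or 1 after C59, whereas the H3K27ac counts of both treatments overlapped at each gene.

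The consensus list of wild-type controls held 34 β-catenin summits in 29 peak regions: 10 summits at Tbx15, 11 at Tbx18 and 13 at Shox2. Of these, 34 lay outside every C59 consensus peak, as did 98.9% of the 16193 wild-type summits of the genome, so the loss at the 3 genes was that of the whole list. None (0 of 34, 95% Wilson interval 0 to 10.2%) lay inside a peak of either C59 replicate, where 2.30% of all wild-type summits did. The interval covers counting error only. A missing row means that a site did not pass the threshold of that library. The weakest summit listed in C59 had a −log10 p of 5.69 in replicate 1 and 5.76 in replicate 2, above the weakest DMSO summits at 3.89 and 3.79. Of the DMSO summits in the 3 loci, 30 of 36 in replicate 1 and 37 of 42 in replicate 2 were at or above that limit in the C59 list of the same replicate number. These shares, 83.3% and 88.1%, were 85.6% and 79.2% over all DMSO summits. The genome-wide background of the β-catenin libraries was an expected coverage of 1.57 and 1.81 fragments in DMSO and 1.83 and 1.82 after C59. Coverage here is the number of fragments over a position, solved from the enrichment and p-value that each row holds.

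The single β-catenin summit after C59 lay at chr9:87557172, downstream of Tbx18 and in intergenic DNA. It was listed in C59 replicate 2 alone, with a fold enrichment of 4.24, a coverage of 14 fragments against 2.54 expected, and a −log10 q of 2.53. In DMSO, the region around it held the summit chr9:87557227, with fold enrichments of 9.13 and 7.94 and a coverage of 50 fragments in each replicate. The peaks of both treatments overlapped, but the DMSO consensus summit fell outside the C59 peak. The summit of DMSO replicate 1 there, chr9:87557165, was almost at the position of the C59 summit, so that this site, counted above as outside the C59 peaks, was listed in 1 C59 library at a lower fold enrichment.

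**Figure D2:**
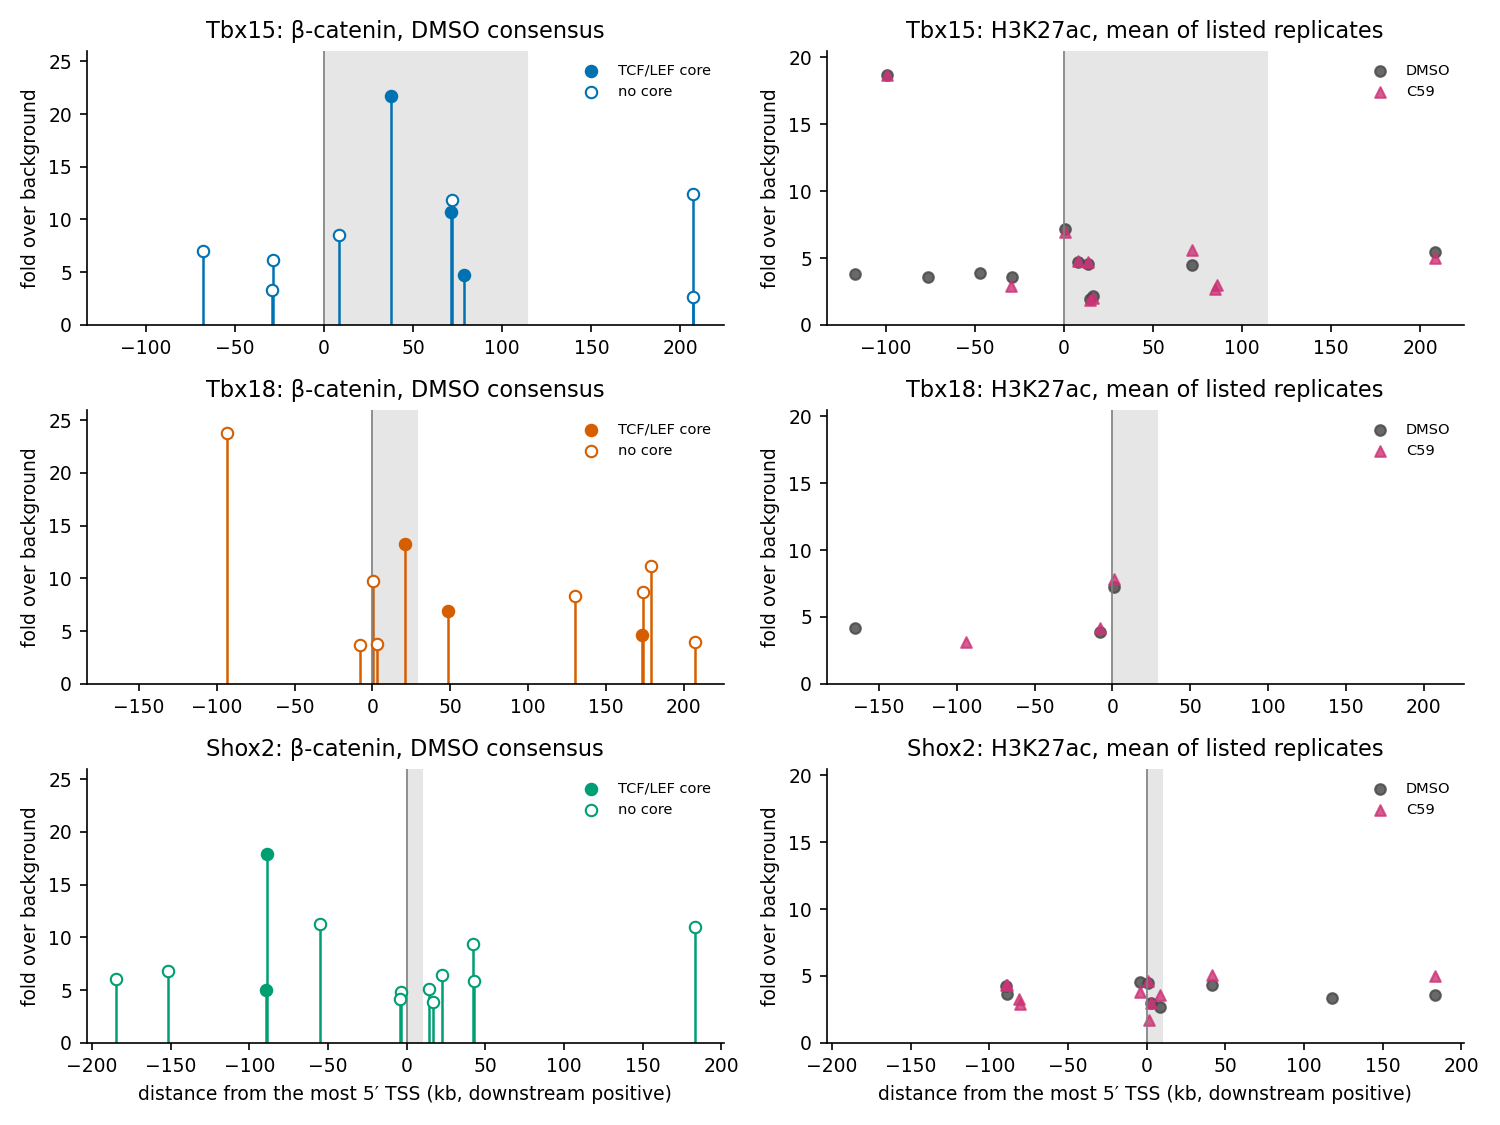
Fold enrichment over background of each DMSO consensus β-catenin summit (left, filled where a TCF/LEF core lies within the 200 bp window) and of each H3K27ac region as the mean of the replicates that list it (right), against the distance from the most 5′ TSS in kb, with the gene body in grey. The highest β-catenin summit of each locus stood 37.8 kb downstream of the Tbx15 TSS, 93.6 kb upstream of the Tbx18 TSS and 89.1 kb upstream of the Shox2 TSS.

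At Tbx15, the highest summit lay in an intron at chr3:99278159, 37.8 kb downstream of the TSS. Its fold enrichment over the expected coverage was 19.3 in DMSO replicate 1, 21.3 in replicate 2 and 21.7 in the consensus list. The coverage at this summit was 109 and 130 fragments against 4.71 and 5.14 expected. It holds the core TTCAAAG printed above, centred 14 bp from the summit. Across the genome, 159 of 16193 summits (0.982%) were at least as high. No H3K27ac peak edge of the DMSO consensus list was nearer than 20853 bp, so that the highest β-catenin site of the gene stood apart from listed acetylation.

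The second strongest β-catenin site of Tbx15 was intergenic, at chr3:99447473, beyond the 3′ end of the gene and 207 kb from the TSS. Its fold enrichment was 10 and 12.4 in the DMSO replicates. A pair of summits in one Tbx15 intron, chr3:99312115 and chr3:99311721, followed with fold enrichments of 10.9 and 10.2 for the former and 10.3 and 9.35 for the latter. The latter holds the core ATCAAAG printed above. The summit chr3:99248851, 8.47 kb inside the gene, had fold enrichments of 6.40 and 8.13 and lay inside an H3K27ac peak. The other 5 summits ranged from 2.60 to 6.97 in the consensus list, and 3 of them lay in Wars2 introns. None of the 10 summits was less than 1 kb from a Tbx15 TSS.

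At Tbx18, the summit with the highest consensus value in the 3 loci lay in intergenic DNA at chr9:87824870, 93.6 kb upstream of the TSS. Its fold enrichment was 22.3 in DMSO replicate 1, 18.9 in replicate 2 and 23.8 in the consensus list, with 90 and 74 fragments against 3.08 and 2.96 expected. Only 87 summits of the genome (0.537%) were at least as high, and its 200 bp window holds 0 TCF/LEF cores. The sequence printed above therefore has no letters in capitals. It was printed as the highest of its locus, whereas lower summits were printed only where they held a core.

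Tbx18 was also the only one of the genes with a consensus β-catenin summit at its TSS, at chr9:87731230 in the 5′ UTR exon, 30 bp from the start. The fold enrichment there was 8.07 and 9.18 in the DMSO replicates. The 120 bases before the start, from the RefSeq promoter (GRCm38.p6, chr9:87731261-87731380, minus strand), hold 0 TCF/LEF cores and are shown because they adjoin this summit.
Tbx18 promoter: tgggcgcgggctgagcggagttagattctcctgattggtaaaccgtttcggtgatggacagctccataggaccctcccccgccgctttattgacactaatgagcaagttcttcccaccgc
The RefSeq promoters of Tbx18 and Shox2 were matched and held 0 cores, where 8.65% of 32851 promoters held at least 1.

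The intronic summit of Tbx18 at chr9:87710329, 20.9 kb downstream of the TSS, had fold enrichments of 11.0 and 13.2, and the core on the minus strand printed above lay 44 bp from it. Far downstream of the gene, chr9:87552713 reached 9.20 and 11.4, and chr9:87557227 reached 9.13 and 7.94. These latter summits lay 179 and 174 kb from the TSS, in a window with 0 other protein-coding genes. The other 6 summits ranged from 3.68 to 8.31 in the consensus list, and 2 of these 6 hold a core.

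At Shox2, the highest summit lay in an Rsrc1 intron at chr3:67070900, 89.1 kb upstream of the Shox2 TSS. Its fold enrichment was 17.0 in DMSO replicate 1, 17.5 in replicate 2 and 17.9 in the consensus list. It had the deepest coverage of the sites in the 3 loci, with 148 and 170 fragments against 7.76 and 8.77 expected, and 431 summits of the genome (2.66%) had a fold enrichment at least as high. The core TTCAAAG printed above lay 66 bp to the left of this summit. A smaller neighbouring summit at chr3:67071398 had fold enrichments of 3.62 and 5.22 and holds 2 further cores, for which it was named after its values were seen.

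The next summits of Shox2 were chr3:67036935, 55.2 kb upstream and again in an Rsrc1 intron, with a consensus fold enrichment of 11.3 and a coverage of 48 and 53 fragments against 3.26 and 4.14 expected. The summit chr3:66798449, 183 kb downstream in intergenic DNA, had fold enrichments of 9.13 and 11.8. The summit chr3:66939813, 42.0 kb downstream, had 7.57 and 9.19. The summit chr3:67134252, 152 kb upstream, had 4.97 and 6.31. The other 8 summits ranged from 3.90 to 6.43 in the consensus list. None of the 13 summits was less than 1 kb from a Shox2 TSS, although DMSO replicate 1 alone listed one at chr3:66980240 with a fold enrichment of 4.21.

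**Figure D3:**
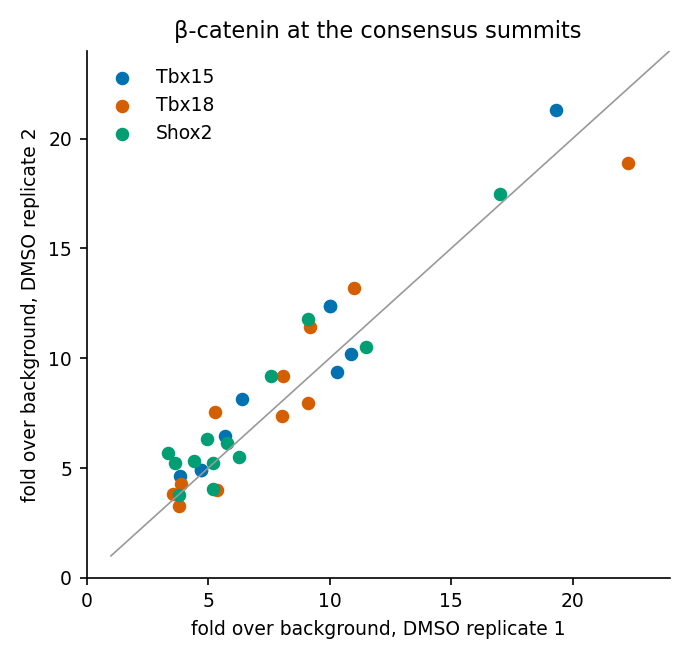
Fold enrichment over background in DMSO replicate 2 against DMSO replicate 1 for each of the 34 consensus β-catenin summits, coloured by gene, with the line of equal values. The 3 highest sites, 1 from each gene, lay at 17.0 or more in both replicates; consensus summits that share 1 summit in both replicates fall on the same point.

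The DMSO replicates gave like values at these sites. Consensus summits shared a replicate summit in places, which left 32 distinct pairs, and the ratio of replicate 2 to replicate 1 had a median of 1.08 and a range of 0.743 to 1.70. Replicate 2 was higher at 21 of 32, against 54.6% of all summits of the genome, where the median ratio was 1.03. The median consensus fold enrichment was 7.72 at Tbx15, 8.31 at Tbx18 and 6.01 at Shox2, and 6.86 over the 3 loci, against 6.76 over the genome. By this measure the sites of the 3 genes were, as a group, of about the usual height.

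By number of β-catenin summits in wild-type controls, Tbx15 with 10 was matched or exceeded by 761 of 21938 protein-coding genes (3.47%), Tbx18 with 11 by 565 (2.58%) and Shox2 with 13 by 331 (1.51%). The median gene had 2 summits and the highest had 65. The order of the 3 genes was Shox2, Tbx18 and Tbx15 in DMSO replicate 1 and in DMSO replicate 2. The Tbx18 and Tbx15 counts, 13 and 12 against 9 and 11, differed by little more than their spread, and Shox2 and Tbx18 differed by a single summit in replicate 1. The order also changed with the window. In the DMSO consensus list, Tbx15, Tbx18 and Shox2 had 10, 6 and 10 summits within 100 kb, and 23, 43 and 28 within 500 kb. By DMSO replicate 1 or 2 alone, the share of genes with at least as many summits was 7.90% or 8.22% for Tbx15, 2.48% or 6.54% for Tbx18 and 1.91% or 1.47% for Shox2, so the places of Tbx15 and Tbx18 depend on the list. By H3K27ac consensus summits the genes were not high, since 12 at Tbx15, 4 at Tbx18 and 9 at Shox2 were matched or exceeded by 40.2%, 75.6% and 52.5% of genes, with a median of 9.

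**Figure D4:**
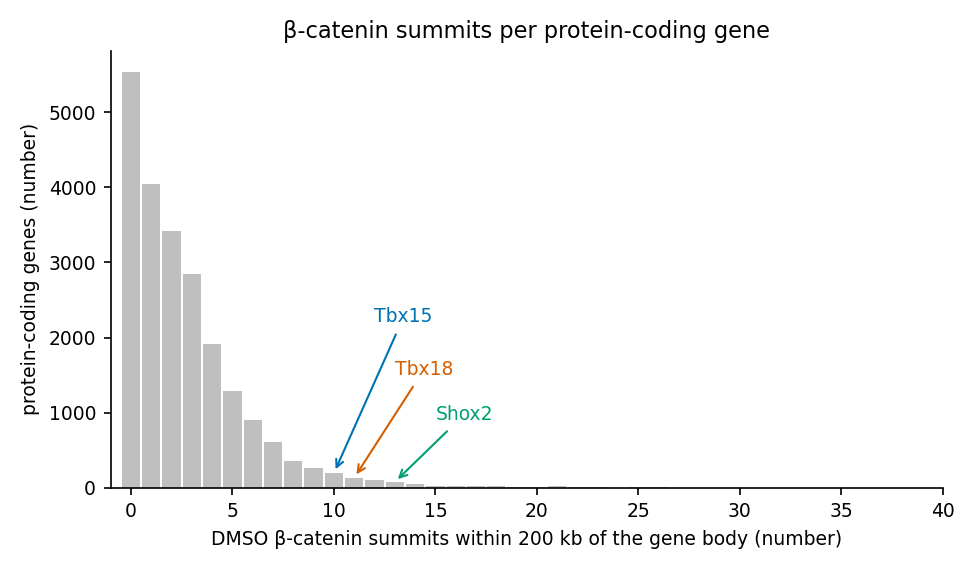
Number of protein-coding genes (vertical axis) with each number of DMSO consensus β-catenin summits within 200 kb of the gene body (horizontal axis, shown up to 40), with the 3 genes marked. Tbx15, Tbx18 and Shox2 stood at 10, 11 and 13 summits, where the median gene had 2.

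The TCF/LEF core was present at 3 of 10 summits of Tbx15, 3 of 11 of Tbx18 and 2 of 13 of Shox2. Together this was 8 of 34 windows of 200 bp (23.5%, 95% Wilson interval 12.4 to 40.0%), against 28.6% of all wild-type summits and 8.66% of windows 2 kb to either side of all summits. The share at the 3 genes was thus near that of the whole list. Of the 9 cores, 6 read TTCAAAG and 3 read ATCAAAG. The homeodomain motif TAATTA, which overlaps no TCF/LEF core in its letters, was present in 11 of 34 windows (32.4%, 19.1 to 49.2%), against 14.8% of all summits. The E-box CAGCTG, a site of basic helix-loop-helix factors, was present in 3 of 34 (8.82%, 3.05 to 23.0%), against 18.8% of all summits, a share inside that interval. Of the windows 2 kb to either side of all summits, 6.97% held TAATTA and 7.97% held CAGCTG. The windows of the 3 genes had a median GC content of 41.8%, against 45.5% over all summits, and the part of base composition in these shares was not tested. Of the 34 summits, 30 (88.2%) were distal to every annotated TSS by at least 1 kb, against 83.7% of all.

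In wild-type controls, the β-catenin summits of the 3 loci lay beside H3K27ac regions more than within them. Of 34 summits, 3 (8.82%, 95% Wilson interval 3.05 to 23.0%) lay inside an H3K27ac consensus peak, against 22.1% of all wild-type summits. The 3 were chr3:99248851 and chr3:99447863 at Tbx15 and chr3:66985759 at an Rsrc1 TSS. Within the replicate lists, 0 of 36 summits in replicate 1 (which allows up to 8.33%) and 1 of 42 in replicate 2 lay inside a peak, against 20.4% and 21.4% of all summits. A further 10 of 34 (29.4%, 16.8 to 46.2%) were outside but within 1 kb of a peak edge, against 11.9% of all.

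These 10 summits include several of the highest sites. At Shox2, the strongest summit, chr3:67070900, was 173 bp from an H3K27ac peak edge, between one acetylated region on either side. The summits chr3:66798449 and chr3:66939813 were 90 and 112 bp from an edge. At Tbx18, the TSS summit was 161 bp from the edge of the promoter region, which lay on its downstream side. At Tbx15, chr3:99447473 was 205 bp and chr3:99312115 was 28 bp from an edge. In the C59 consensus list, H3K27ac peaks did hold chr3:99312115, chr3:99311721 and chr3:67071398, so these sites were beside acetylation in DMSO only. By contrast, 9 of the 11 Tbx18 summits were more than 1 kb from an H3K27ac peak of the DMSO consensus list, and the highest one, chr9:87824870, was 71281 bp away. Lists other than the DMSO consensus held H3K27ac nearer to both upstream Tbx18 summits. The region chr9:87825132-87825387, next to chr9:87824870, was listed in C59 replicate 1 alone with a fold enrichment of 3.12. The region chr9:87739157-87739836, next to the weaker summit chr9:87738977, was not listed in DMSO replicate 1 and had 3.86 in DMSO replicate 2 and 5.03 and 3.27 after C59. It had 4.61 in the C59 consensus list and was absent from the DMSO one. The numbers of summits per locus are small, and no test between these loci and the rest was made.

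Unlike β-catenin, H3K27ac summits were about as many after C59 as in DMSO. At Tbx15, the replicate lists held 13 and 15 in DMSO and 17 and 12 after C59. At Tbx18, they held 4 and 5 in DMSO and 4 and 5 after C59. At Shox2, they held 11 and 11 in DMSO and 9 and 13 after C59. The treatments overlapped at each gene, and the difference over the 3 loci, 0.50 summits, was smaller than the SD of the DMSO replicates (two-sided exact permutation p = 1).

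Of the 17 DMSO consensus regions of the 3 loci, 15 overlapped a C59 consensus region (88.2%, 95% Wilson interval 65.7 to 96.7%), against 87.0% of all. In the other direction, 15 of 16 C59 regions overlapped DMSO (93.8%, 71.7 to 98.9%), against 89.3% of all. Joined over the 4 replicate libraries there were 31 H3K27ac regions, and 16 of them were listed in all 4. At 11 of these 16 the fold enrichments of the treatments overlapped. At 1 both C59 values were below both DMSO values (background 19.4% of 17475 regions), and at 4 both were above (background 20.9%). The median difference of C59 from DMSO over the 16 was 0.02 on the log2 scale, against 0.00 over all regions. The counts were 8 regions at Tbx15, 1 at Tbx18 and 7 at Shox2.

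The promoters of the 3 genes were acetylated in all 4 libraries. At the Tbx15 TSS the fold enrichment was 7.65 and 6.74 in DMSO and 7.42 and 6.46 after C59, and at an internal Tbx15 TSS 13.7 kb downstream it was 4.27 and 4.82 against 4.96 and 4.42. Beside the most 5′ Tbx18 TSS it was 7.32 and 7.19 in DMSO and 8.06 and 7.64 after C59. This Tbx18 region, chr9:87729350-87731103, lies just downstream of that TSS and holds another Tbx18 TSS. Beside the most 5′ Shox2 TSS the fold enrichment was 4.57 and 4.35 in DMSO and 4.58 and 4.62 after C59. This Shox2 region, chr3:66980543-66981717, ends before that TSS and also holds an Rsrc1 TSS. The groups overlapped at both Tbx15 promoters, while at Tbx18 and at this Shox2 region the C59 values lay above the DMSO values, by 0.11 and 0.04 on the log2 scale. At an internal Shox2 TSS, with 2.75 and 3.17 in DMSO and 3.23 and 2.73 after C59, the groups overlapped. A region between these Shox2 starts, chr3:66979707-66980211, was listed in C59 replicate 2 alone with a fold enrichment of 1.70.

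**Figure D5:**
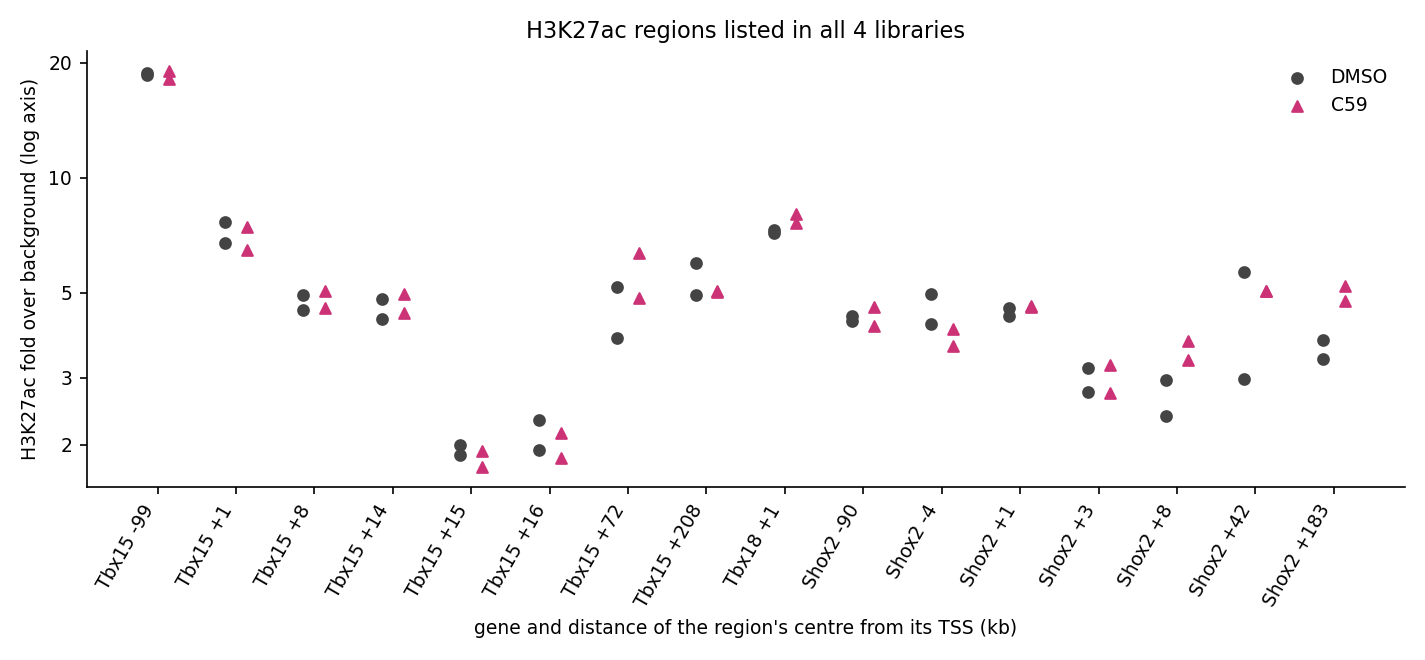
H3K27ac fold enrichment over background (log axis) in each of the 4 libraries at the 16 regions listed in all of them, ordered by gene and labelled with the distance of the region's centre from the most 5′ TSS in kb. Circles are DMSO and triangles are C59 replicates; the treatments overlapped at 11 regions, and the largest separations were at Shox2 regions 183 and 8.21 kb downstream of the TSS.

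Away from the starts of the 3 genes, the highest H3K27ac region of the Tbx15 window was the Wars2 promoter, with 18.8 and 18.6 in DMSO and 19.1 and 18.2 after C59. The region chr3:99447615-99448164 beyond the 3′ end of Tbx15 had 4.94 and 6.00 in DMSO and 5.01 and 5.05 after C59. The treatments overlapped at both. At Shox2, chr3:66939930-66940437 had 2.98 and 5.66 in DMSO and 5.07 and 5.06 after C59, and chr3:67071029-67071459, next to the strongest β-catenin summit, had 4.34 and 4.21 in DMSO and 4.09 and 4.59 after C59. Acetylation on this side of the strongest site was thus listed with overlapping values in both treatments, where β-catenin was not listed after C59. On the other side, chr3:67070356-67070651 had 3.66 and 3.59 in DMSO, was not listed in C59 replicate 1 and had 4.31 in C59 replicate 2.

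The 1 region lower after C59 held an Rsrc1 TSS, chr3:66985665-66986245, with 4.14 and 4.97 in DMSO and 4.01 and 3.63 after C59. The largest increase was at chr3:66798539-66799064, which adjoins the β-catenin summit 183 kb downstream of Shox2, with 3.77 and 3.35 in DMSO and 5.20 and 4.76 after C59, a difference of 0.48 on the log2 scale. A region over the 3′ part of Shox2 had 2.38 and 2.95 in DMSO and 3.74 and 3.34 after C59, a difference of 0.41. Each such separation of 2 against 2 libraries has an exact permutation p of 0.33, and the shares of separated regions at the 3 genes are to be read against the 19.4% and 20.9% above. These last 2 regions, chr3:67070356-67070651, chr9:87825132-87825387 and chr9:87739157-87739836 were chosen after their values were seen, as they fall outside the rule for named regions.

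A single region was listed in both DMSO replicates and in neither C59 replicate, chr9:87896156-87896470, 165 kb upstream of Tbx18. Its fold enrichment was 4.98 and 3.36 in DMSO. No region was listed in both C59 replicates alone. Such regions made up 3.03% (DMSO) and 2.15% (C59) of all joined regions, and 1 and 0 of 31 here.

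Other genes listed for the proximal bud and girdle also had β-catenin summits in wild-type controls. The list is broad and also holds genes used above as forelimb mesenchyme genes, such as Prrx1, Twist1 and Tbx5. Tbx5 is counted among the T-box genes below too. Of the 16 genes in the list, including Meis1, Meis2, Emx2, Alx4 and Prrx1, 16 had at least 1 summit within 200 kb, against 74.8% of all protein-coding genes. The number in wild-type controls was 10 or more at 9 of the 16, against 761 of all 21938 genes, and ran from 2 at Pbx2 to 25 at Prrx1, a homeobox gene of limb mesenchyme. H3K27ac summits were more after C59 at 6, fewer at 8 and equal at 2 of the 16, against 4906, 9242 and 7790 of all genes.

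Of 15 other T-box genes, 14 had β-catenin summits in DMSO. The median was 3 summits, lower than the 10 at Tbx15 and the 11 at Tbx18. The limb T-box genes Tbx2, Tbx4, Tbx3 and Tbx5 had 17, 15, 12 and 10, with the windows of neighbouring genes such as Tbx2 and Tbx4 counting some of the same summits. Among the rest the highest numbers were 6 at T (brachyury), a mesoderm regulator, and 5 at Tbx6. In the consensus lists, H3K27ac summits were fewer after C59 at 11 of the 15, more at 1 and equal at 3. Of all 21938 genes, they were fewer at 9242, more at 4906 and equal at 7790. The falls included 1 to 0 at Tbx20 and 29 to 22 at Tbx2. Consensus lists give no spread between replicates, and the whole DMSO list was longer, with 31466 summits against 30166 after C59. Neighbouring genes that count the same summits are not independent, and a difference of T-box genes from the rest was not tested.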

How the data were processed

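β-catenin and H3K27ac ChIP-seq peaks of mouse forelimb buds were analysed in 8 libraries, 2 per antibody and treatment. The 4 input samples were not used here, and peaks were called without input. The authors trimmed, mapped (Bowtie2 2.4.5, mm10) and filtered reads and called peaks with MACS2 2.2.7.1 per replicate. For consensus lists, the authors took out duplicates (Picard 2.27.4), sampled both replicates to equal depth and kept summits present in both. Each deposited row gives a fold enrichment, a ratio to the coverage expected there in that library, with a p-value and a q-value written as −log10 (the consensus q-value was entered as a deposited score). These ratios are not scaled between libraries. The summit offset, another deposited column, gave the position. Consensus values are the authors' pooled values, without an error.

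Gene bodies and TSSs (132629 distinct positions) were read from GENCODE M21 on GRCm38, and 0 peaks passed a chromosome end. Summits on chromosomes 1 to 19, X and Y were assigned to genes within 200 kb and counted as shared when inside a peak of the other list. Regions were shared when they overlapped by at least 1 bp. Coverage and expected coverage were solved from fold enrichment and p where −log10 p was at most 250, within 0.01. Depth as total reads is not in the lists. The lowest listed coverage at background was 8 fragments in the DMSO and 11 in the C59 β-catenin lists. TCF/LEF cores were sought on both strands in 200 bp windows and in control windows 2 kb away. Shares carry Wilson intervals at 95%. Counts were compared by a two-sided exact permutation test over libraries, for which 0.33 is the smallest p. Replicates were separate pools of embryos.

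Summits given with values were the 5 highest of each locus, those less than 1 kb from a TSS of the gene and those of C59 lists. H3K27ac regions given were those at a TSS of the gene, the 3 highest of each locus and those listed in both replicates of 1 treatment and neither of the other. Those named outside these rules are marked in the text. The 3 genes and the gene lists were chosen with earlier results of these data known. Some results for the list of proximal and girdle genes are not reported here. Alternatives comprised other windows, stricter limits, each replicate alone, other overlaps, other motif windows and coverage in place of fold enrichment. Scripts were tested on simulated data. Calculations ran in Python 3.11.15 with scipy 1.17.1, pandas 2.3.3, pysam 0.24.0, numpy 2.4.6 and matplotlib 3.10.9.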

Additional observations from a re-analysis of the deposited data

How the results depend on the processing

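Of 110 alternative values, 76 stayed within the limit set for them (1.5 times for counts, the interval or the replicate SD for others) and 34 moved. Changes of sign were not counted apart. The loss of β-catenin was 100% under all 6 alternatives, which each counted the Tbx18 site listed in C59 replicate 2 as lost. The C59 consensus list held 0 summits in the 3 loci, so alternatives that used it could hardly give another value. One of them, chosen after seeing the data, kept the 29 of 34 summits at or above the lowest −log10 p of the C59 consensus list (9.24). A window of 500 kb gave 94 β-catenin and 48 H3K27ac summits, and a fold enrichment of at least 5 left 6 H3K27ac summits and shared 100% of DMSO regions. By replicate 1 and replicate 2 alone, β-catenin summits numbered 36 and 42, H3K27ac summits 28 and 31, and shared H3K27ac regions were 84.2% and 78.3%. The share of β-catenin summits with H3K27ac was 38.2% within 1 kb of a peak, and from 0 to 2.38% in single replicates. The 8-base core (A or G after the core) was present at 8.82%, and single replicates gave 21.4 to 33.3% for the 7-base core. The median place of the 3 genes was 6.54% without replicate 1 and 2.48% without replicate 2. With coverage in place of fold enrichment, 2 H3K27ac regions were lower and 5 higher after C59, with a median log2 difference of 0.10. By fold enrichment, this median was -0.05 without replicate 1 and 0.03 without replicate 2. With the replicate block, the same sign in both same-numbered pairs, 3 regions were lower and 5 higher. The numbers name replicates and nothing in the labels pairs them. For values that moved and whose construction does not show why, the cause was not tested. With 2 libraries a group, small differences in height were not detectable.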

Other observations

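The summits nearest to the limit of the windows had consensus fold enrichments of 2.60 to 23.8. Just outside, they were 18.5 at 249 kb below and 7.11 at 219.5 kb above the Tbx15 gene body, 12.4 at 249.8 kb below and 7.37 at 201 kb above Tbx18, and 9.51 at 227 kb below and 5.10 at 328 kb above Shox2. The outermost inside were 6.97 at 67.9 kb below and 2.60 at 93.6 kb above Tbx15, 3.93 at 179 kb below and 23.8 at 93.6 kb above Tbx18, and 11.0 at 173 kb below and 6.01 at 185 kb above Shox2. Below and above refer to the coordinate.

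The highest summit upstream of Tbx18 holds no TCF/LEF core but holds tcacacct, the minus-strand form of the T-box element AGGTGTGA. This element was chosen after the sequence was seen. It was present in 2 of 11 windows of Tbx18, 0 of 10 of Tbx15 and 0 of 13 of Shox2, against 1.14% of all wild-type summits and 0.849% of windows 2 kb away. The 2 Tbx18 windows include that of the highest summit, from which the element was taken, so that match was fixed in advance. A match is a description of these letters only.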
